A study of Mus musculus with 20 samples.

Results

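GC-rich introns were taken as the introns whose deposited GC content was at least 58%, in a table of introns measured in nascent RNA of murine erythroleukemia (MEL) cells. The rule kept 344 of 6537 introns (5.26%), which lie in 244 of 1407 genes. Their GC content reached 88.5% with a median of 61.4%, against a median of 43.9% over all introns of the table. They were compared with the 2959 introns of 42 to 52% GC, called mid-GC introns below, which lie in 1056 genes.

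MEL cells are a virus-transformed mouse red cell precursor line that matures towards red cells when given dimethyl sulfoxide (DMSO), so all values describe 1 transformed line in culture. The 4 uninduced long-read samples received no inducer, and the 4 induced samples were kept in 2% DMSO for 5 days. Both groups are labelled wild type, and both were made from chromatin-bound RNA depleted of ribosomal and of polyadenylated RNA, as 2 biological replicates on 2 PacBio instruments. The deposited tables give 1 line per intron and condition, so each condition is 1 pool, no value has a replicate error, and every test between pools compares those pools and not the conditions. The other 12 samples (run-on sequencing, and lines with an inserted human beta-globin gene) were not analysed here. Of the GC-rich introns, 265 were listed in the uninduced pool, 217 in the induced pool and 138 in both.

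In splicing, the spliceosome first cuts the RNA at the 5′ splice site, which leaves a free upstream exon and a branched intron still joined to the downstream exon, and then joins the exons. A nascent RNA read can therefore be unspliced, spliced, or a splicing intermediate that ends where the upstream exon was cut. The spliceosome reads short sequences at each end of the intron: a GT-starting 5′ splice site, and a run of pyrimidines (C or T) followed by AG at the 3′ splice site. Mammalian introns of high GC content are often short, and GC-rich sequence is common around promoters, where first introns lie.

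The splice sites of members that carry the results are shown first: the introns with the highest GC content (Elob, H2afz), a deep ribosomal protein intron (Rps6), the introns that differed between the pools (Hba-a1, Prdx2, Eef2), and introns with much unspliced RNA (Oaz1, Ifrd2, Calr). They were read from the deposited table, 5′ to 3′. Capitals mark the first 2 and the last 2 bases of the intron, with 3 exon bases before the GT and 3 after the AG.

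Elob intron 1, 5′ site: atgGTgagc
Elob intron 1, 3′ site: cgcgggcccgccgtcctcAGgac
H2afz intron 1, 5′ site: atgGTaacg
H2afz intron 1, 3′ site: gggcgtcggcggcgccgcAGgct
Rps6 intron 1, 5′ site: aagGTaggc
Rps6 intron 1, 3′ site: gtccccctttaaaactgtAGctg
Hba-a1 intron 2, 5′ site: aagGTatgc
Hba-a1 intron 2, 3′ site: tgtccactttgtctccgcAGctc
Prdx2 intron 4, 5′ site: cagGTacag
Prdx2 intron 4, 3′ site: gtgggccctcatgtcttcAGggg
Eef2 intron 8, 5′ site: gagGTgggc
Eef2 intron 8, 3′ site: gacagttgccctccctctAGaac
Oaz1 intron 2, 5′ site: gagGTtggt
Oaz1 intron 2, 3′ site: gccctactccgaaccttcAGctt
Ifrd2 intron 4, 5′ site: aagGTcgat
Ifrd2 intron 4, 3′ site: aactggaaagcatcctgtAGgga
Calr intron 4, 5′ site: aagGTgtgc
Calr intron 4, 3′ site: tcacctccttccctcttcAGgat

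These sequences vary widely in the pyrimidine tract, taken here as the 17 bases from position -20 to -4 counted back from the end of the intron. Elob intron 1 has 9 C and 2 T in its tract and H2afz intron 1 has 6 C, 1 T and 10 purines, while Calr intron 4 has 9 C, 7 T and 1 purine. Over all GC-rich introns the tract held 38.9% C and 36.3% T, against 27.4% C and 48.1% T in mid-GC introns. Its pyrimidine content was nearly the same, at 75.2% and 75.5%, so C was more frequent and T less. At the 5′ splice site, the third base of the intron was G in 61.3% of GC-rich and 36.5% of mid-GC introns. GTGAGT opened 23.8% of GC-rich and 17.1% of mid-GC introns, and GTAAGT opened 5.81% and 12.8%. All but 1 of the 344 GC-rich introns began with GT, and that 1 began with GC. The deposited splice site scores, a measure of fit to a typical site for which the scoring program is not given in the sources used here, had medians of 8.70 and 8.91 for the 5′ site and 8.89 and 8.85 for the 3′ site in GC-rich and mid-GC introns. The tract and 5′ bases count towards the GC content that chose the introns, so these shares are a description only.

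GC-rich introns were short. Their median length was 143 nt, with a range of 66 to 2222 nt, against a median of 1139 nt in mid-GC introns. Lengths up to 100 nt made up 32.8% of GC-rich and 4.29% of mid-GC introns, and lengths up to 500 nt made up 88.4% and 26.9%. First introns of their transcript numbered 154 among the GC-rich introns (44.8%), against 18.1% of mid-GC introns. Introns in the 5′ untranslated region numbered 54 (15.7%, against 6.69%), none lay in a 3′ untranslated region, and 284 lay between coding exons. Chromosomes 11, 8 and 9 held the most, with 44, 40 and 35 members. The exons on either side had ordinary lengths, with medians of 125 nt upstream and 116 nt downstream, against 122 and 120 nt for mid-GC introns. The median distance from the intron to the end of the transcript was 4661.5 nt, against 9967 nt. Of the GC-rich introns, 169 (49.1%) were missing from at least 1 annotated transcript that spans them, against 33.5% of mid-GC introns. A small RNA gene lay within 7 GC-rich introns (2.03%, against 1.79% of mid-GC and 1.76% of all introns). Among these were a microRNA (Mir1982) in Oaz1 intron 2 and a small nucleolar RNA (Snora7a) in Rpl32 intron 1.

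Splicing was first described by the co-transcriptional splicing efficiency (coSE), the fraction of reads across an intron that were spliced. Without regard to length, GC-rich introns had a mean coSE of 0.841 (uninduced) and 0.844 (induced), and mid-GC introns had 0.863 and 0.871. The medians were 0.946 and 0.960 for GC-rich introns and 0.941 and 0.947 for mid-GC introns. All reads were spliced in 76 (28.7%) uninduced and 86 (39.6%) induced GC-rich introns, against 30.1% and 35.9% of mid-GC introns. At the low end, coSE was under 0.5 in 28 (10.6%) and 22 (10.1%) GC-rich introns, against 6.79% and 6.12% of mid-GC introns. At the median depth of 29 uninduced and 23 induced reads per GC-rich intron, a count of 0 unspliced reads allows an unspliced share of up to 10.3% and 13.0% (3 counts, counting error only).

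Among introns of like length, GC-rich introns were spliced more completely. With 6 length bins as factors, their coSE was higher than that of mid-GC introns by 0.0811 (SE 0.0173, 95% interval 0.0471 to 0.115; 265 and 2505 introns) in the uninduced pool and by 0.0786 (SE 0.0198, 95% interval 0.0398 to 0.117; 217 and 1340 introns) in the induced pool. The adjusted p was 1.96e-05 and 0.000238 (Wald test of a least squares fit with standard errors clustered by gene, Benjamini-Hochberg over 6 tests). At lengths over 100 and up to 200 nt the mean coSE of GC-rich introns was 0.832 ± 0.0266 (SE over 75 introns) in the uninduced pool, against 0.747 ± 0.0183 in 181 mid-GC introns. In the induced pool these means were 0.882 ± 0.0252 (63 introns) and 0.756 ± 0.0219 (105 introns). At lengths over 500 and up to 1000 nt the means were 0.964 ± 0.0107 and 0.820 ± 0.0102 in the uninduced pool. At lengths up to 100 nt the induced means were 0.758 ± 0.0314 and 0.760 ± 0.0279, which do not differ beyond their errors. Without the length bins the uninduced difference was -0.0212 and the induced one -0.0273, so the sign rests on comparing introns of like length. In mid-GC introns the mean coSE was higher in the longer bins, and GC-rich introns are mostly short.

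**Figure D1:**
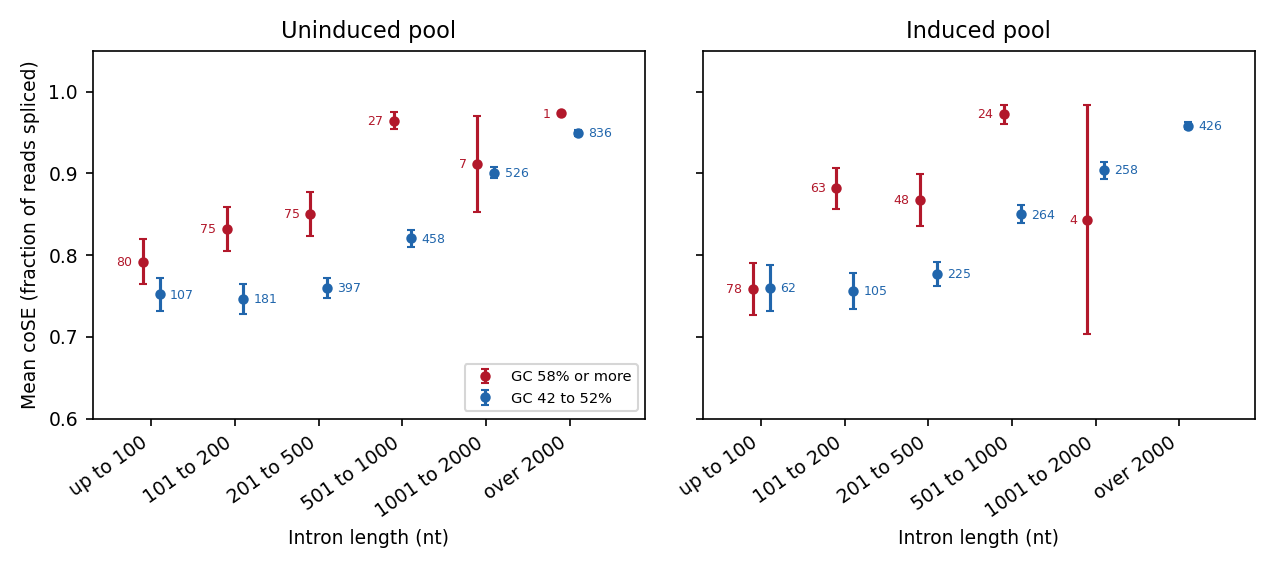
Mean coSE (vertical axis, fraction of reads spliced) of GC-rich introns (red) and mid-GC introns (blue) in 6 bins of intron length in nt (horizontal axis), in the uninduced (left) and induced (right) pool. Bars are the SE over introns and the small numbers count introns; red lies above blue from over 100 to 1000 nt in both pools, the last 2 bins hold at most 7 GC-rich introns each, and the vertical axis starts at 0.6.

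The size of this difference varied with position in the transcript. Among first introns, GC-rich introns exceeded mid-GC introns of like length by 0.172 before induction (SE 0.0339; 133 and 472 introns) and by 0.204 after it (SE 0.0398; 99 and 256 introns). Among all other introns the differences were 0.0366 (95% interval -0.0175 to 0.0907) and 0.0350 (95% interval -0.0218 to 0.0919), which did not pass the test. In a fit over both positions with common length bins, the class difference was larger in first introns by 0.0783 (uninduced; SE 0.0305, 95% interval 0.0186 to 0.138) and by 0.0827 (induced; SE 0.0349, 95% interval 0.0142 to 0.151), each with an adjusted p of 0.0362 (Wald test, Benjamini-Hochberg over 4 interactions). With a term for first introns, the class difference was 0.0803 and 0.0838.

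The contrast among first introns rested on few short mid-GC introns. Up to 500 nt, 99 GC-rich first introns had a mean uninduced coSE of 0.867, against 0.648 in 36 mid-GC first introns. In the induced pool the means were 0.877 over 72 introns and 0.589 over 21 introns. Later introns of this length were nearer to each other: 131 GC-rich introns had a mean of 0.792 and 649 mid-GC introns 0.761 in the uninduced pool, and 117 and 371 introns had 0.797 and 0.779 in the induced pool. Most first introns of mid GC content were long, with a median of 2732 nt in the uninduced pool, and over all lengths their mean coSE was 0.904, against 0.889 for GC-rich first introns.

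**Figure D2:**
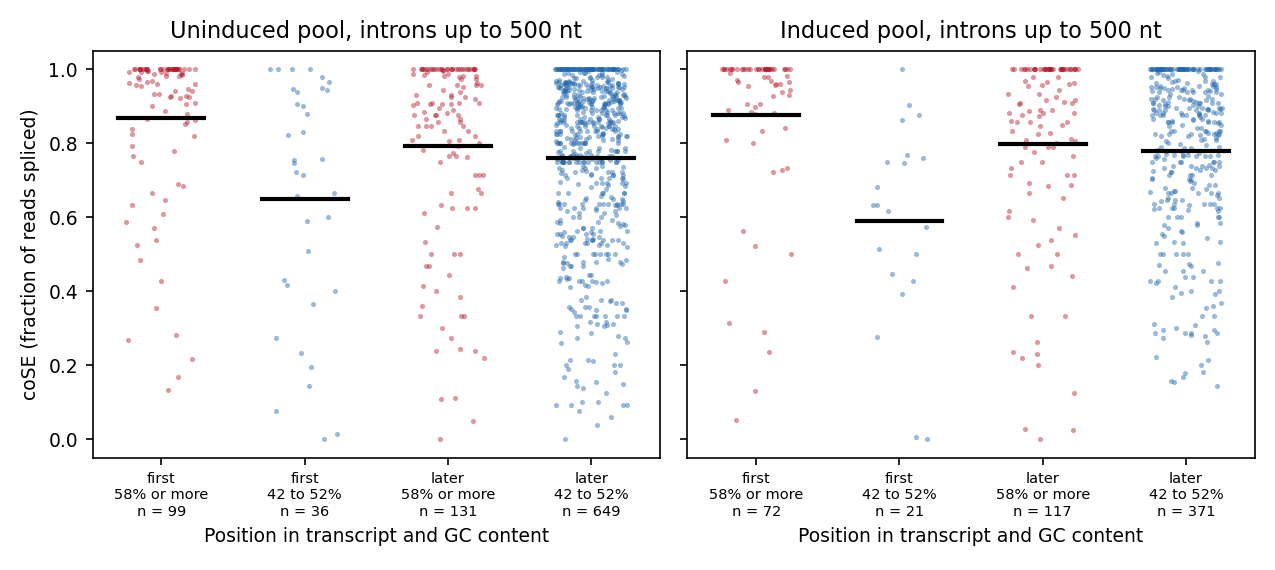
coSE (vertical axis, fraction of reads spliced) of single introns up to 500 nt, by position in the transcript and GC content (horizontal axis), in the uninduced (left) and induced (right) pool. Each point is 1 intron and the black bar is the mean; GC-rich first introns crowd near 1 (means 0.867 and 0.877), and the few mid-GC first introns spread over the whole range (means 0.648 and 0.589).

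The difference did not build up evenly with GC content. Against mid-GC introns of like length, introns of 52 to 58% GC, just under the threshold, differed by -0.0162 (uninduced, 519 introns, 95% interval -0.0426 to 0.0102) and by -0.0339 (induced, 391 introns, 95% interval -0.0624 to -0.00530). Introns of 36 to 42% GC differed by 0.0131 (uninduced, 1708 introns, 95% interval 0.00136 to 0.0248) and by 0.0153 (induced, 777 introns, 95% interval -0.000723 to 0.0312). Introns below 36% GC differed by 0.0181 (uninduced, 95% interval -0.00773 to 0.0439) and by -0.000967 (induced, 95% interval -0.0427 to 0.0407). Within the GC-rich introns, the mean uninduced coSE was 0.787 in 138 introns of 58 to 62% GC, 0.881 in 91 introns of 62 to 70%, and 0.9498 in 36 introns of at least 70%. The induced means were 0.808, 0.851 and 0.968 over 122, 64 and 31 introns. No intron of at least 70% GC had a coSE under 0.5 in either pool. Position moved with GC content here: first introns made up 31.2%, 64.8% and 86.1% of these groups in the uninduced pool, and their part in the gradient was not tested. With the threshold set at 62% GC, the class difference was 0.135 and 0.113; with it set at 55%, it was 0.0390 and 0.0292.

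Introns just inside and just outside the threshold show how fine that line is. Just inside lay Slc6a9 intron 4 (a glycine transporter), with 17 of 18 induced reads spliced, Dpp4 intron 1 (a membrane protease), with 63 of 77 uninduced reads spliced, and Flcn intron 11 (folliculin), with 12 of 12 uninduced reads spliced. Just outside lay Pnn intron 5, with 23 of 23 uninduced and 18 of 19 induced reads spliced, Tmbim6 intron 8, with 19 of 20 induced reads spliced, and Cyp4f13 intron 4, with 1 of 13 induced reads spliced.

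When introns were compared within genes, the difference was smaller. In the uninduced pool 149 genes had both a GC-rich and a mid-GC intron, and the GC-rich mean coSE was higher in 82, lower in 56 and equal in 11 of them. In the induced pool it was higher in 58, lower in 34 and equal in 11 of 103 genes. These counts are not matched on length, and the uninduced means over genes went the other way, at 0.853 for GC-rich and 0.864 for mid-GC introns, while the induced means were 0.870 and 0.857. With the gene as a fixed effect and the same length bins, the uninduced difference was 0.0160 (95% interval -0.0128 to 0.0448) and the induced one 0.0287 (95% interval -0.00135 to 0.0587), neither past the threshold.

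The second readout was NIC, the deposited fraction of intermediates among intermediates and spliced reads. Over GC-rich introns it averaged 0.0301 (uninduced) and 0.0318 (induced), against 0.0408 and 0.0387 over mid-GC introns. Any intermediate at all was seen in 62 (23.4%) uninduced and 49 (22.6%) induced GC-rich introns, against 34.4% and 36.3% of mid-GC introns. At the median of 18 uninduced and 15 induced reads behind a NIC value, a count of 0 intermediates allows a NIC of up to 16.7% and 20%. With length bins as factors, NIC was lower in GC-rich introns by 0.0197 in the uninduced pool (difference -0.0197, SE 0.00747, adjusted p 0.0126) and by a like amount in the induced pool (difference -0.0196, SE 0.00650, adjusted p 0.00552; same Wald tests). With intermediates taken over intermediates and all reads of the intron, spliced and unspliced, the differences were -0.00940 and -0.0107.

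NIC varied with position in both classes. GC-rich first introns had a mean NIC of 0.00456 (uninduced) and 0.00238 (induced), and GC-rich internal introns had 0.0515 and 0.0542. Mid-GC introns had 0.00897 and 0.0132 in first and 0.0490 and 0.0436 in internal introns. With a term for first introns, the class difference in NIC was -0.000902 (95% interval -0.0174 to 0.0156) and -0.00456 (95% interval -0.0208 to 0.0117), and without first introns it was 0.00883 and 0.00570. Among first introns alone it was -0.0223 (SE 0.0142) and -0.0400 (SE 0.0228), as large as over all introns or larger, with a wider error, and did not pass the test. Up to 500 nt, GC-rich first introns had a mean NIC of 0.00519 (uninduced) and 0.00327 (induced), against 0.0476 and 0.0801 in the 36 and 21 mid-GC first introns. In a fit over both positions, the class difference in first introns minus that in later ones was -0.0182 (95% interval -0.0457 to 0.00932) and -0.0233 (95% interval -0.0487 to 0.00216), with an adjusted p of 0.195 and 0.0971 (Wald test, Benjamini-Hochberg over 4 interactions). Position also moved with length: first introns made up 17.5%, 45.3%, 68% and 96.3% of uninduced GC-rich introns in the 4 bins up to 1000 nt. The uninduced mean NIC of these bins was 0.0373 up to 100 nt, 0.0443 up to 200 nt, 0.0198 up to 500 nt and 0.00592 up to 1000 nt, each bin starting where the one before ends. In mid-GC introns, of which first introns made up 0.935% to 11.1% of the same bins, the means stayed between 0.0419 and 0.0524. The part of position in this pattern was not tested.

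**Figure D3:**
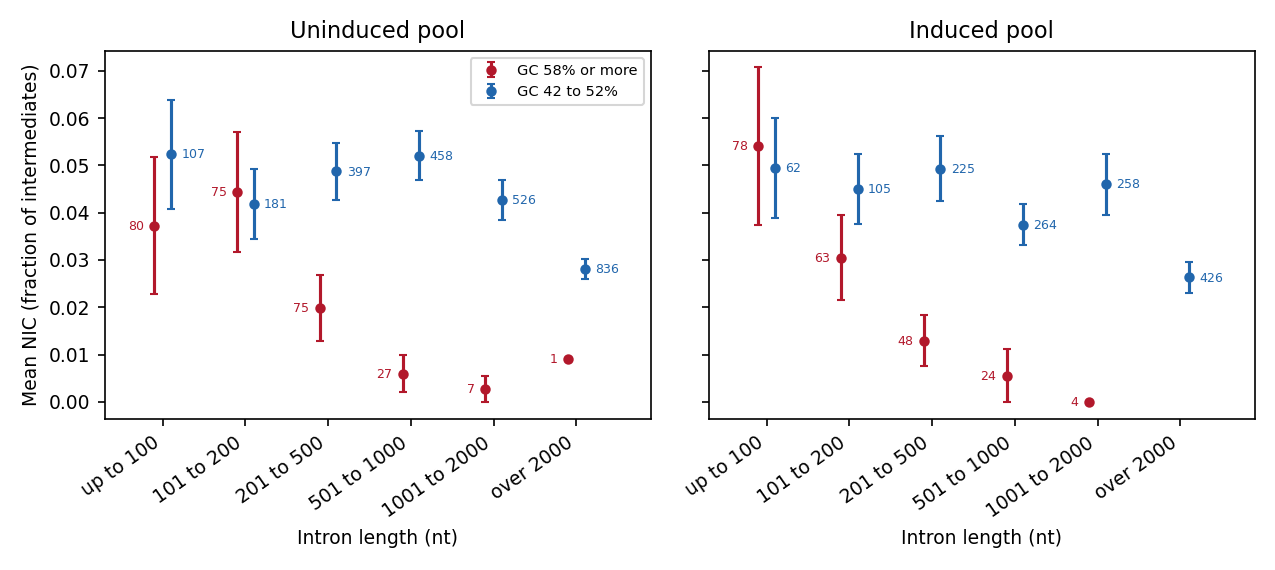
Mean NIC (vertical axis, fraction of intermediates) of GC-rich introns (red) and mid-GC introns (blue) by intron length in nt (horizontal axis), in the uninduced (left) and induced (right) pool. Bars are the SE over introns and the small numbers count introns; red and blue overlap at lengths up to 200 nt in the uninduced pool, and red lies below blue from over 200 to 1000 nt in both pools.

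Ribosomal protein genes held the largest share of GC-rich introns among 12 gene lists. They contributed 55 GC-rich introns in 40 genes, which is 17.6% of their 312 introns in the table. Their mean coSE was 0.959 over 55 uninduced values and 0.971 over 43 induced values, and their mid-GC introns had means of 0.892 and 0.876. Of the 55, 6 had an intermediate in the uninduced pool, and of the 43, 2 had one in the induced pool. Summed over introns, 15 intermediates stood against 8673 spliced reads, a pooled NIC of 0.173%, in the uninduced pool. The remaining 210 uninduced GC-rich introns had a mean coSE of 0.810, and the remaining 174 induced ones 0.812. Without ribosomal protein genes, the length-matched coSE difference was 0.0634 (SE 0.0196) and 0.0567 (SE 0.0229). The NIC difference without them was -0.0156 and -0.0165, and neither passed the threshold after adjustment.

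The other lists held few GC-rich introns by count. Their shares ran from 0% to 8.57% of the introns of a list, against 5.26% over the table. Translation factors had 14 of 200, with mean coSE of 0.938 uninduced and 0.876 induced. Red cell membrane and skeleton genes had 7 of 172, DNA replication genes 6 (5.94% of theirs), glycolytic enzymes 5 of 82, genes of heme synthesis and iron 5 of 81, and proteasome subunits 4 of 108. Cytoskeletal actin and tubulin genes had 3 of 35, heat shock chaperones 3 of 48, SR proteins and hnRNPs 2 of 74, core spliceosome genes 1 of 68, and erythroid transcription factors 0 of 11. Of the 84 GC-rich introns of these 12 lists that were tested between the pools by Fisher's exact test, 1 changed (1.19%, against 1.61% of all introns tested), in Eef2.

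Most of the deepest GC-rich introns were nearly fully spliced in both pools. Rps19 intron 1 (chr7:24884668-24885135, 5′ untranslated region, 70.5% GC), of a small subunit protein, was spliced in 622 of 626 uninduced reads (0.994) and 325 of 331 induced reads (0.982). Rps6 intron 1 (chr4:86856860-86857320, between coding exons, 69.8% GC), of another small subunit protein, was spliced in 577 of 579 and 210 of 210 reads. Eef1a1 intron 1 (chr9:78480689-78481638, 5′ untranslated region, 64.3% GC), of the factor that brings aminoacyl-tRNA to the ribosome, was spliced in 686 of 707 and 79 of 82 reads. Together these 3 introns had 0 intermediates in either pool. Rps3a1 intron 1 was spliced in 342 of 345 and 312 of 314 reads. Rpl35 intron 1 had 586 of 586 and 49 of 50 reads spliced, and Rpl32 intron 1, with Snora7a inside it, had 511 of 520 and 70 of 72. Hba-a1 intron 2, also among the deepest, did not follow this pattern and is described with the changes between pools.

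The introns of highest GC content were likewise almost always spliced. Elob intron 1 (chr17:23828979-23829082, minus strand, between coding exons, 88.5% GC), of the elongin B subunit, was spliced in 51 of 51 uninduced reads (95% Wilson interval of coSE 0.930 to 1) and 26 of 26 induced reads. H2afz intron 1 (chr3:137864697-137865132, plus strand, between coding exons, 81.7% GC), of the histone variant H2A.Z, was spliced in 179 of 180 and 87 of 88 reads, although its 3′ splice site score was only 2.09. Lcor intron 1 (79.7% GC), of a nuclear receptor corepressor, was spliced in 17 of 18 and 20 of 20 reads. Srpk1 intron 1 (78.2% GC), of a kinase of SR splicing proteins, was spliced in 52 of 54 and 9 of 9 reads, and Cep120 intron 1 (77.9% GC), of a centriole protein, in 16 of 16 and 9 of 9. None of these 5 introns had an intermediate in any pool in which NIC was listed, and all 5 are first introns. Among all GC-rich first introns, an intermediate was seen in only 8.27% (uninduced) and 4.04% (induced).

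At the other end, the 5 GC-rich introns of lowest uninduced coSE, among those with at least 20 reads there, are each missing from at least 1 annotated transcript. So are 49.1% of all GC-rich introns. Of the 28 with an uninduced coSE under 0.5, 17 are missing from some transcript and 11 are in every one. The 5 introns were chosen for low uninduced values, and none of those with enough reads in both pools passed Fisher's exact test between the pools. Oaz1 intron 2 (chr10:80828797-80828892, plus strand, 60.4% GC), of an inhibitor of polyamine synthesis, was spliced in 0 of 46 uninduced and 0 of 15 induced reads, and only 1 of 7 annotated transcripts that span it removes it. With 0 of 46 reads spliced, a spliced share of up to 6.52% is allowed. Tmed1 intron 2 (a protein of ER-to-Golgi transport) was spliced in 1 of 21 uninduced and 8 of 8 induced reads, and an intron of Fau, whose protein is processed to a ribosomal protein, in 4 of 37 and 1 of 7. Depdc5 intron 1 (a subunit of an mTORC1 inhibitor) was spliced in 4 of 30 and 9 of 21 reads, and Ccndbp1 intron 1 (a cyclin D binding protein) in 4 of 24 and 9 of 18. These introns were present in 1 of 5, 1 of 8, 1 of 6 and 4 of 5 annotated transcripts.

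Among the lowest values of the induced pool, Ifrd2 intron 4 (chr9:107590423-107590504, plus strand, 58.5% GC) was spliced in 3 of 9 uninduced and 1 of 36 induced reads. It has the weakest sites of those printed above, with deposited scores of 1.29 for the 5′ and -3.82 for the 3′ site, and 1 of 3 annotated transcripts removes it. 4933434E20Rik intron 2, which the 1 annotated transcript that spans it removes, was spliced in 1 of 43 induced reads. Dpp7 intron 1 (a dipeptidyl peptidase), in 5 of 8 transcripts, was spliced in 5 of 7 uninduced and 3 of 23 induced reads. Ctsa intron 4, of the lysosomal protease cathepsin A, was spliced in 11 of 50 uninduced and 7 of 35 induced reads, and Calr intron 4 (chr8:84844784-84844870, minus strand), of the ER chaperone calreticulin, in 10 of 42 and 7 of 32. For Ctsa and Calr the 2 pools gave nearly the same low coSE. Calr intron 4 had a 3′ score of 12.94, the highest of the named introns.

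The mean coSE of GC-rich introns in every annotated transcript was 0.863 over 127 introns before induction, against 0.822 over 138 introns missing from some transcript, while the medians were 0.941 and 0.958. After induction the means were 0.874 over 107 and 0.815 over 110 introns, and the medians 0.979 and 0.944. The means of mid-GC introns were 0.884 and 0.822 before and 0.888 and 0.840 after induction, and these splits were not tested. Restricted to introns in every annotated transcript of both classes, the length-matched coSE difference was 0.0668 (SE 0.0226) and 0.0938 (SE 0.0240).

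Between the pools, few GC-rich introns changed in coSE. Of 222 with at least 10 reads in both pools, coSE was higher in the induced pool in 98, lower in 75 and equal in 49, with a median difference of 0. Over all 4403 introns tested, it was higher in 1879, lower in 1534 and equal in 990, also with a median difference of 0. By Fisher's exact test with Benjamini-Hochberg adjustment over all 4403 introns tested, 3 of the 222 (1.35%) changed, against 1.61% of all introns, so the share is near the background. All 3 were lower in the induced pool, where 1.25% of all introns were called lower and 0.363% higher. An unadjusted p under 0.05 was found for 24 GC-rich introns (10.8%) and 7.97% of all introns. The length-matched class difference in the change of coSE was 0.00551 (95% interval -0.0245 to 0.0355; 138 and 886 introns), and that in NIC was -0.00511 (95% interval -0.0171 to 0.00689). The adjusted p of these differences was 0.719 and 0.484 (Wald tests as above). Across the 222 introns, coSE in the pools had a Spearman's rho of 0.632, given as a description, since introns of 1 gene share reads.

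The 3 introns that fell lie in genes of an alpha-globin, a peroxiredoxin and a translation factor. Hba-a1 intron 2 (chr11:32284129-32284262, plus strand, between coding exons, 134 nt, 64.2% GC), of an alpha chain gene of hemoglobin, was spliced in 106 of 108 uninduced reads (0.981, Wilson interval 0.935 to 0.995) and 610 of 787 induced reads (0.775, interval 0.745 to 0.803; Fisher's exact test, adjusted p 5.33e-06). Prdx2 intron 4 (chr8:84971410-84971561, plus strand, between coding exons, 152 nt, 61.2% GC), of an antioxidant enzyme abundant in red cells, was spliced in 44 of 46 reads (0.957, interval 0.855 to 0.988) and 80 of 149 reads (0.537, interval 0.457 to 0.615; adjusted p 1.24e-05). Eef2 intron 8 (chr10:81180078-81180152, plus strand, between coding exons, 75 nt, 58.7% GC), of the elongation factor that moves the ribosome along the mRNA, was spliced in 109 of 117 reads (0.932, interval 0.871 to 0.965) and 41 of 63 reads (0.651, interval 0.528 to 0.757; adjusted p 0.00107). The intervals of the 2 pools do not overlap for any of these 3 introns. They describe the same counts by which the test chose the introns, and are no separate support. The next intron of Eef2, intron 9, went from 109 of 120 to 36 of 52 reads spliced and did not pass the threshold (adjusted p 0.0580). With at least 20 reads required in both pools it did (adjusted p 0.0235, Fisher's exact test), and 4 of 99 GC-rich introns were then called, against 5.11% of all introns.

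**Figure D4:**
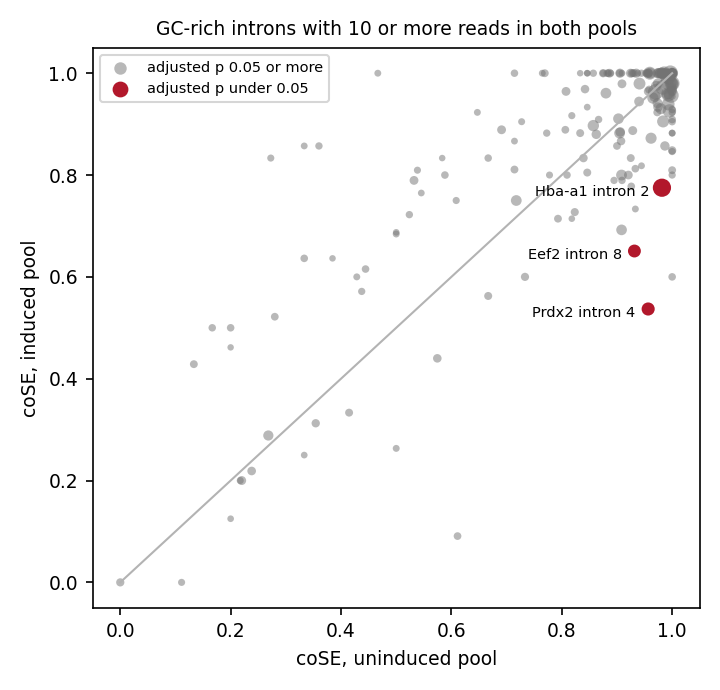
coSE of GC-rich introns in the uninduced (horizontal axis) and induced (vertical axis) pool, both as the fraction of reads spliced, for the 222 introns with at least 10 reads in both. Each point is 1 intron, its area grows with depth, the line marks equal values, and the 3 red points below the line are the introns that passed the test; most others lie near the upper right corner.

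In NIC, 1 of 138 GC-rich introns listed in both pools changed (0.725%), against 0.0981% of all 2039 introns tested (Fisher's exact test with Benjamini-Hochberg adjustment). The higher share rests on this 1 intron. It was also the only GC-rich intron with an unadjusted p under 0.05 (0.725%, against 1.67% of all introns tested). Hba-a1 intron 2 showed 1 intermediate and 95 spliced reads before induction (NIC 0.0104, Wilson interval 0.00184 to 0.0567), and 99 and 610 after it (NIC 0.140, interval 0.116 to 0.167; adjusted p 0.0440). With intermediates taken over intermediates and all reads, the values of this intron were 0.00917 before and 0.112 after induction. By a chi-square test no GC-rich intron passed. Hba-a2 intron 2 (chr11:32296946-32297079), of the neighbouring copy, has the same splice site sequences, and had 89 intermediates beside 134 spliced reads in the induced pool (NIC 0.399, interval 0.337 to 0.465). It had only 6 uninduced reads, all spliced. How reads were divided between these near-identical copies is not stated, so the values per copy are uncertain. The alpha-globin introns gave 188 of the 290 intermediates of all GC-rich introns in the induced pool. Pooled over reads, NIC of GC-rich introns came to 0.828% uninduced and 4.53% induced, against 2.66% and 3.44% in mid-GC introns. Over reads, intermediates were thus rarer in GC-rich introns before induction and more frequent after it. Without the alpha-globin genes the GC-rich values were 0.827% and 1.86%.

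The other GC-rich introns of highest NIC were of several functions, and their values rested on few intermediates. In the uninduced pool the highest NIC among introns with at least 20 intermediates plus spliced reads belonged to Hspa5 intron 2 (an ER chaperone), with 3 intermediates of 22, and Smtn intron 19 (smoothelin, a cytoskeletal protein), with 2 of 21. Sat1 intron 2 (a polyamine acetyltransferase) had 5 of 68, Pfdn5 intron 4 (a prefoldin subunit) 2 of 36 and Rps15 intron 3 had 4 of 81. In the induced pool, Dctn2 intron 11 (a dynactin subunit) had 7 of 21, Slc4a1 intron 5 (the red cell anion exchanger) 5 of 35 and Eef2 intron 9 had 4 of 32. Taken over all reads, NIC went from 0.143 to 0.0794 for Slc4a1 intron 5, from 0.125 to 0.0714 for Eef2 intron 9 and from 0.0952 to 0.0588 for Smtn intron 19. For Dctn2 intron 11 the uninduced value was 8 of 19, so NIC was high in both pools, and 1 of 3 annotated transcripts includes the intron.

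GC-rich introns clustered in some genes: 179 genes had 1, 44 had 2 and 21 had 3 or more. Ampd2, an AMP deaminase, had the most with 6, and their uninduced coSE ran from 0.238 to 1. Slc4a1 had 5, none listed for uninduced cells, and their induced coSE ran from 0.552 to 0.859. Tnpo2, a nuclear import receptor, had 5, with uninduced coSE from 0.467 to 0.857 and induced coSE from 0.688 to 1, on 7 to 19 reads. Ptbp1, a pyrimidine tract-binding repressor of splicing, had 5, with 0.885 to 1 uninduced and 0.789 to 1 induced. Eef2 had 4, with 0.903 to 0.965 uninduced and 0.651 to 0.951 induced. Rpl10a and Rpl36, of the large ribosomal subunit, had 3 each, and all of these had a coSE of at least 0.982 in both pools.

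**Figure D5:**
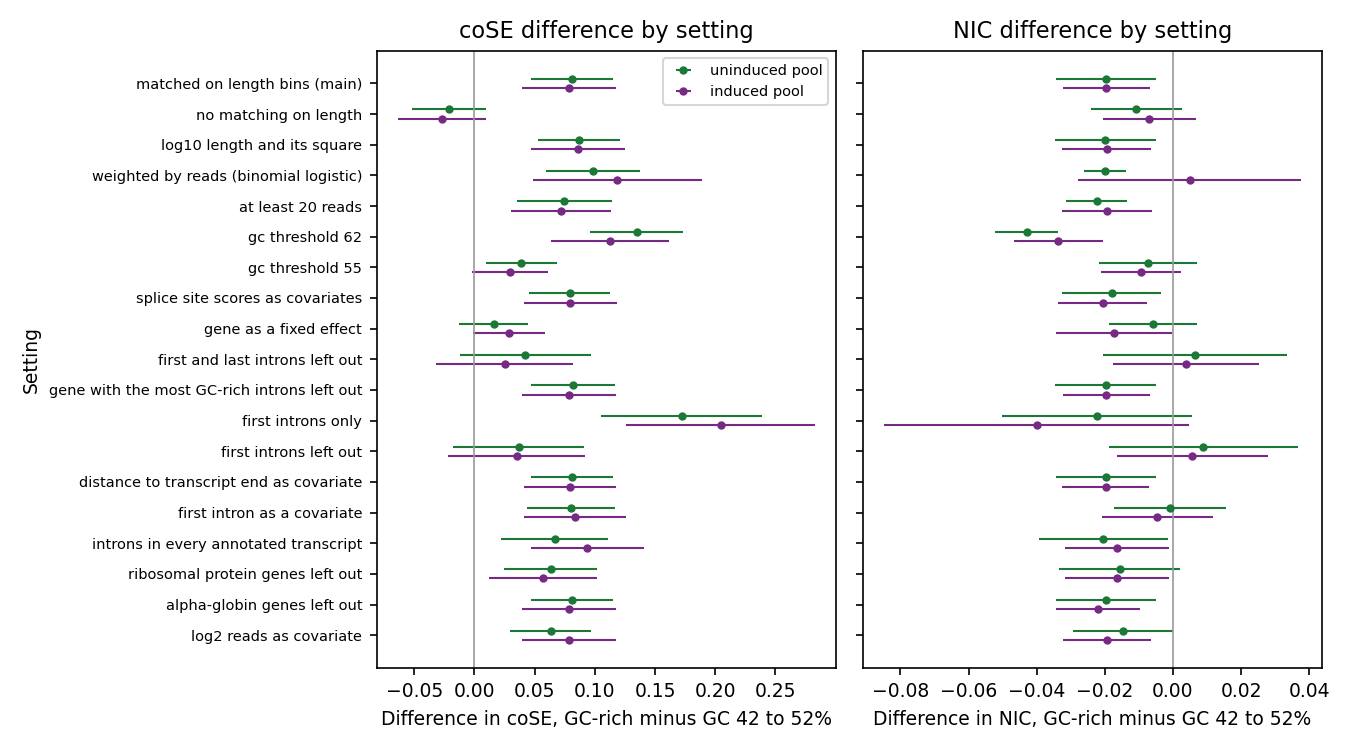
Difference between GC-rich and mid-GC introns in coSE (left) and NIC (right), GC-rich minus mid-GC on the horizontal axis, under the length-matched fit (top row) and each other setting (vertical axis). Points are estimates and bars 95% intervals, green for the uninduced and purple for the induced pool; the coSE difference is below 0 only without length matching, and the NIC difference lies near 0 once first introns are left out or given a term, and at -0.0223 (uninduced) and -0.0400 (induced) among first introns only.

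Several measured features of the data bear on these values. The pools held 358493 spliced and 57886 unspliced observations (uninduced) and 240664 and 38707 (induced), over all introns. The table with GC content held 98.3% of lines with at least 20 reads and 13.6% of those with 10 to 14, by a rule that is not stated. Thinly covered introns are thus under-represented, and how far this holds for GC-rich introns was not measured. Of 14 erythroid marker genes, 11 had reads before and 14 after induction, with 1934 and 15011 observations, and Tal1, Slc4a1 and Epb42 were at 0 before induction. All 10 markers of other blood, connective tissue or liver cells were at 0 in both.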

How the data were processed

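Nascent long-read RNA of MEL cells was analysed from tables the authors deposited, with 1 line per intron and condition. Per the file headers, 1 table gives counts of spliced and unspliced reads. The deposited table of NIC gives counts of intermediates and spliced reads, NIC as a fraction, GC content as a percent, a score for each splice site, and the splice site sequences. The submitters' processing notes name cutadapt, minimap2, SAMtools, bedtools and Bowtie and the builds mm10 and dm3; the counting step, filters and scoring program are not given in the sources used here. GC content times length was whole (within 0.01) in 100% of lines, so it is the intron's own.

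coSE was computed as spliced over spliced plus unspliced reads. Condition lines were assigned to the long-read groups; which runs were added is not stated. Introns were placed on GENCODE M21 (GRCm38) by adding 2 to the deposited start and taking 1 from the end, and 100% matched annotated introns. Classes were compared by least squares with 6 length bins and gene-clustered errors (Python 3.11.15, numpy 2.4.6, scipy 1.17.1). Introns of a gene can share reads. Pools were compared by two-sided Fisher's exact tests, with a threshold of 0.05 on adjusted p. Intervals of shares are 95% Wilson intervals and, like floors of 3 counts, cover counting error only. Procedures were tested on simulated data. Without replicate values, no p measures biological spread.

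Introns were named by rule: those past a threshold between pools, the 8 with most reads, the 5 lowest in coSE and 5 highest in NIC per pool (at least 20 reads), the 5 of highest GC content, and the 3 nearest either side of 58%. An intron that this rule names is not reported here. The 4 genes with 5 or more GC-rich introns were named beside these, and Eef2, Rpl10a and Rpl36 among genes with fewer were chosen after their values were seen. Members and gene lists were chosen with earlier results of these data known.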

Additional observations from a re-analysis of the deposited data

How the results depend on the processing

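The coSE difference kept its sign under 17 of 18 settings in each pool. Without length matching it was -0.0212 uninduced and -0.0273 induced, with NIC differences of -0.0107 and -0.00691, neither past the threshold, and a NIC change of 0.00628. Past the threshold no longer were the coSE differences with the GC threshold at 55% (0.0390 and 0.0292), with the gene as a fixed effect (0.0160 and 0.0287), without first and last introns (0.0424 and 0.0253) and without first introns (0.0366 and 0.0350). The NIC differences lost the threshold at 55% GC (-0.00741 and -0.00935), with the gene fixed (-0.00578 and -0.0173), among first introns (-0.0223 and -0.0400), with a term for first introns (-0.000902 and -0.00456), among introns in every transcript (-0.0204 and -0.0164), without ribosomal protein genes (-0.0156 and -0.0165) and, uninduced, with log2 reads as covariate (-0.0146). They turned positive without first introns (0.00883 and 0.00570), without first and last introns (0.00650 and 0.00379) and, induced, weighted by reads (0.00493). The change of coSE turned to -0.00729 at 20 reads or more, -0.0169 without first and last introns, -0.00906 without first introns and -0.00687 without ribosomal protein genes. The change of NIC turned to 0.0118 weighted by reads and 0.00236 among introns in every transcript. With the gene fixed it was -0.0254 (95% interval -0.0442 to -0.00656), with an adjusted p of 0.0501 (Wald test, Benjamini-Hochberg), against -0.00511. The count of introns whose NIC changed was 0 by chi-square. Beyond the construction of each setting, the cause was not tested. Settings on first introns, transcript end, every transcript, reads as covariate and left-out gene groups were chosen after seeing the data.

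No paired analysis was possible because each condition was deposited as 1 pool, and leaving out replicates was not possible either. GC content recomputed from a genome was not run. Depth limits single introns: at the median depth, unspliced shares and NIC values below the limits that a count of 0 allows could not be detected.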
